A study of Mus musculus with 4 samples.

Results

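The genes described here are grouped with the primary (azurophil) granule of neutrophils: Ctsc (cathepsin C), Elane, Prtn3, Ctsg, Mpo, Fcnb and the transcription factor gene Cebpe. They were taken by name, and each was read from the probe set that the platform annotation gives to that symbol alone; all 7 had such a probe set, out of 19938 genes measured in this way. The RNA came from bone marrow cells of C57BL/6 background mice that were sorted for Ter119, a protein of the erythroid lineage, and CD71, the transferrin receptor, so the cells were red cell precursors by their label. Wild type mice were compared with mice of genotype Parp-2-/-, which lack the DNA-damage-dependent enzyme PARP2, with 2 arrays of each genotype. No allele other than that of Parp2 and no treatment is named, and the age of the mice and whether each array held a separate animal are not given in the sources used here. The comparison of these genes asks how much RNA of early granulocytes the sorted cells carried in each genotype.

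Primary granules are made early in granulocyte development, at the promyelocyte stage, and store enzymes that kill ingested microbes. Neutrophil elastase (Elane), proteinase 3 (Prtn3) and cathepsin G (Ctsg) are serine proteases made as inactive proforms, and the cysteine protease cathepsin C (Ctsc, also called dipeptidyl peptidase I) activates them by removing an N-terminal dipeptide. Myeloperoxidase (Mpo) makes hypochlorous acid, ficolin B (Fcnb) is a lectin of myeloid cells that can start the complement cascade, and C/EBP epsilon (Cebpe) is a transcription factor of granulocyte maturation. Red cell precursors are not known for any of these granule products, which belong to granulocytes and their precursors. Cathepsin C is made more widely than the proteases it activates, and other blood cells use it to activate granzymes and mast cell proteases.

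RefSeq promoter entries of the build GRCm38.p6 matched 6 of the 7 genes; Cebpe was not matched. They are shown because 5 of these 6 genes had the same wild type array as their highest and Ctsc did not. Each sequence below holds the 250 bases before the annotated start, 5′ to 3′ on the gene's own strand, with capitals marking AGGAAGT or its reverse complement ACTTCCT, the core bound by the myeloid factor PU.1 and by other ETS factors. They lie at chr7:88277835-88278084 for Ctsc, chr10:79886062-79886311 for Elane, chr10:79879417-79879666 for Prtn3 and chr11:87793534-87793783 for Mpo on the plus strand, and at chr14:56102575-56102824 for Ctsg and chr2:28084879-28085128 for Fcnb on the minus strand.
Ctsc: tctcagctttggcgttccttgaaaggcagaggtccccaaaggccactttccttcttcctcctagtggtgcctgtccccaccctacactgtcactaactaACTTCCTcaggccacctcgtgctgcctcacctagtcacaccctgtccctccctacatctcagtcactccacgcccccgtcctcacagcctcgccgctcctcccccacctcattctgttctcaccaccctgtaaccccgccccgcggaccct
Elane: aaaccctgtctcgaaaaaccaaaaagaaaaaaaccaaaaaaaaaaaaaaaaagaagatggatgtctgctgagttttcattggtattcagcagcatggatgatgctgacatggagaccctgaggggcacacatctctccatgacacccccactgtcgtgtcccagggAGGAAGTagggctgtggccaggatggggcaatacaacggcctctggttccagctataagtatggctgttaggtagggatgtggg
Prtn3: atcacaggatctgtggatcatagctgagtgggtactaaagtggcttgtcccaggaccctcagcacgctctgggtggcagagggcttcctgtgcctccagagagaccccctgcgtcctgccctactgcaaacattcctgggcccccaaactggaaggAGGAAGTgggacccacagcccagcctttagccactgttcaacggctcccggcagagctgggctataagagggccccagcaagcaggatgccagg
Ctsg: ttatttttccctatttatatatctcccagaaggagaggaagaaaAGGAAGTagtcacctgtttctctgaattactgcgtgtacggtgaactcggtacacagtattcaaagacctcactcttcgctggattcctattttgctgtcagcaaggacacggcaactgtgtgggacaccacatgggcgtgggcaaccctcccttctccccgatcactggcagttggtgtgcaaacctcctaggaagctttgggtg
Mpo: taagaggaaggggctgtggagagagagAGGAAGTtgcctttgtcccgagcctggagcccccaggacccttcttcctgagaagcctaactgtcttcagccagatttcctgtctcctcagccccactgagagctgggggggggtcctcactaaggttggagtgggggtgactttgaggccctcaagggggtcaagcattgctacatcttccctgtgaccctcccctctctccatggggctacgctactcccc
Fcnb: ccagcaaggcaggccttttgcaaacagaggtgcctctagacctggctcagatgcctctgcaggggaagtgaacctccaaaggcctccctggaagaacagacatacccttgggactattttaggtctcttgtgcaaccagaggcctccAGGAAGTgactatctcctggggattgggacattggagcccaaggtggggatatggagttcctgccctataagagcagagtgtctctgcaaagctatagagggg

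The core AGGAAGT, searched on both strands, was found in all 6 promoters and in 7.69% of the 32851 promoters of the same length. It began 84 bases before the start in Elane, 94 in Prtn3, 103 in Fcnb, 206 in Ctsg and 223 in Mpo, and in Ctsc it lay on the opposite strand, from 151 to 145 bases before the start. The MYB core AACGG was found in Elane and Prtn3, 50 and 55 bases before their starts, and in 14.5% of all promoters. The RUNX core TGTGGT was found in Ctsg alone among the 6 (14% of all), and the C/EBP palindrome TTGCAA in Fcnb alone (5.34% of all). The 4 motifs do not overlap each other in these windows. They were picked after the sequences had been read, so the counts describe these 6 windows and are no test.

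Every value below is a normalised log2 expression value, on which a step of 1 is a doubling, and a difference is knockout minus wild type. Parp2 itself was checked first. It read 8.24 and 7.65 on wild type replicates 1 and 2 and 7.11 and 6.70 on knockout replicates 1 and 2, a difference of -1.04 ± 0.40 (limma SE, n = 2 per group). Whether this probe set lies in the deleted part of the gene is not stated. The 11 erythroblast genes measured, among them Tfrc (the gene of CD71), Gata1, Klf1, Alas2 and Slc4a1, stood above the upper quartile of probe sets on all 4 arrays. So did 12 of the 16 measured genes of later granules and mature neutrophils. How much of the sorted RNA was erythroid was not tested. Array medians lay between 5.23 and 5.49, and the interquartile range was smallest on knockout replicate 2 (1.98; 2.62 to 2.94 elsewhere). In such bulk samples fewer cells of a type and less RNA per cell cannot be told apart.

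All 7 genes had lower mean values in the knockout, where 43.6% of the 23410 probe sets tested did. Their differences ran from -2.15 for Ctsc to -0.94 for Cebpe, with a median of -1.68 against a median of 0.06 over all probe sets. For 4 of them, Ctsc, Mpo, Ctsg and Cebpe, the higher knockout array was below the lower wild type array, an order that 9.42% of all probe sets had. The arrays overlapped for Elane, Prtn3 and Fcnb. With limma over all probe sets, 0 of the 7 passed an adjusted p of 0.05 (adjusted p = 0.9999 for each), as did 0% of all probe sets. At an unadjusted p of 0.05, limma gave 3 of the 7 (Ctsc, Mpo and Ctsg), against 1.73% of all probe sets in the lower direction. Leaving out an array moved the median: it was -0.68 and -2.22 without replicate 1 or 2 of wild type, and -2.38 and -1.02 without replicate 1 or 2 of the knockout. With the titles' replicate number as a block, limma passed 5 of the 7, against 0.957% of all probe sets in the lower direction. That fit gave all probe sets the same SE, so passing depended only on the size of the difference. All 7 were lower in both same-numbered comparisons, as were 21.2% of all. No label says that the numbers pair the arrays.

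**Figure D1:**
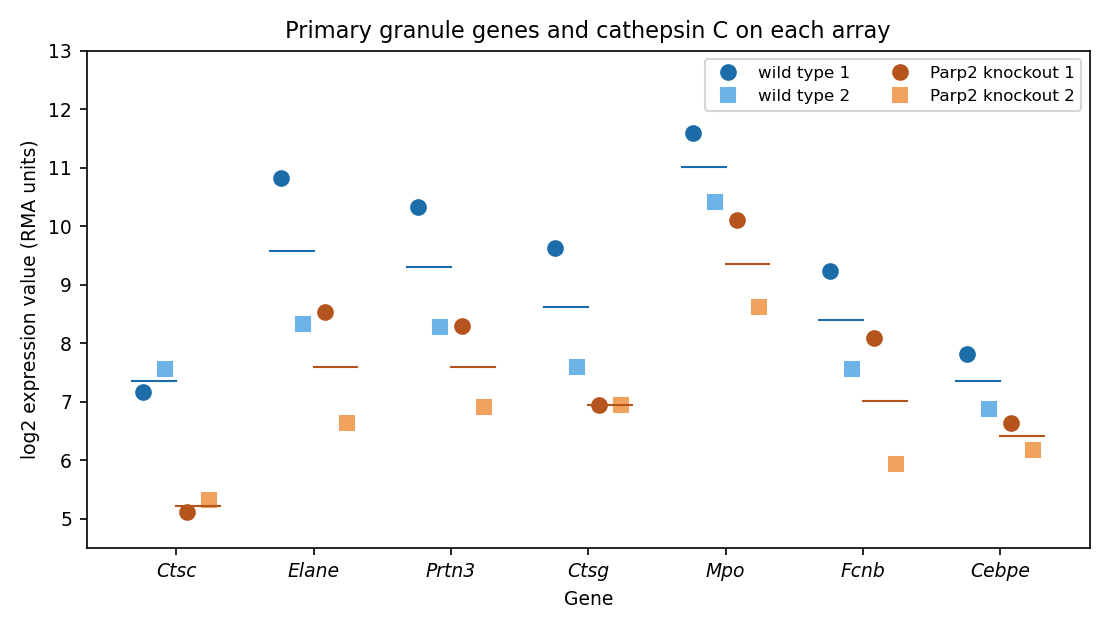
Log2 expression value of each gene on the 4 arrays (y axis, RMA units; circles replicate 1, squares replicate 2, blue wild type, orange Parp2 knockout), with horizontal lines at the group means. Ctsc sits between 7.16 and 7.56 in wild type and between 5.11 and 5.31 in the knockout, whereas for Elane, Prtn3 and Fcnb wild type replicate 2 lies at or below knockout replicate 1.

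Ctsc, the activating protease, showed the largest difference of the 7. Its wild type arrays were the closest together of the 7 genes, and its knockout arrays were close too, with only those of Ctsg closer. It read 7.16 and 7.56 in wild type, and 5.11 and 5.31 in the knockout. The groups were 1.85 apart at their nearest, and the difference was -2.15 ± 0.37 (SE, n = 2 per group), with a 95% interval of -3.03 to -1.27. The unadjusted limma p of 0.000736 did not pass over all probe sets (adjusted p = 0.9999). Among all probe sets of the same array Ctsc stood at the percentiles 73.7 and 80.4 in wild type and 47.4 and 44.1 in the knockout. The knockout values are thus near the array medians, and no detection call was used here that would place them above background, so no fold is given. When each array was left out, the arrays were centred or quantile normalisation was repeated, its difference stayed between -2.35 and -1.95.

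Of the serine proteases that cathepsin C activates, Elane and Prtn3 varied far more between arrays of the same genotype, and Ctsg did so between the wild type arrays. Elane read 10.83 and 8.33 in wild type, and 8.53 and 6.64 in the knockout. Wild type replicate 2 was thus slightly below knockout replicate 1 though above knockout replicate 2, and only wild type replicate 1 stood above both knockout arrays. The difference of -1.99 ± 0.92 (SE, n = 2 per group) had a 95% interval of -4.18 to 0.20. Without wild type replicate 1 it was -0.74, and without wild type replicate 2 it was -3.24. Both of these fits rest on a lone wild type array and use 1 spread for all probe sets, so their p is not given. The limma adjusted p of Elane was 0.9999 in the main fit. With the replicate block it was 0.00035, in a fit that also used 1 spread for all probe sets.

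Prtn3 followed the same order of arrays, with 10.33 and 8.28 in wild type and 8.29 and 6.91 in the knockout. Wild type replicate 2 and knockout replicate 1 differed by 0.01. Its difference was -1.71 ± 0.76 (SE, n = 2 per group), or 3.27-fold lower, with a 95% interval of -3.51 to 0.09. Prtn3 and Elane are next to each other among the measured genes of the reference and were also the most alike of the 7 in pattern. When each gene's mean is taken off, their values differed by a root mean square of 0.275 over the 4 arrays.

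Ctsg separated the genotypes where Elane and Prtn3 did not. It read 9.63 and 7.60 in wild type and 6.94 on both knockout arrays. The knockout arrays were the lower ones, but the wild type arrays were 2.03 apart. The difference was -1.68 ± 0.65 (SE, n = 2 per group), or 3.20-fold lower, with a 95% interval of -3.23 to -0.12, and it shrank to -0.66 when wild type replicate 1 was left out.

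Mpo, the peroxidase of these granules, read 11.59 and 10.42 in wild type and 10.10 and 8.62 in the knockout. Both knockout arrays were lower, by 0.32 at the nearest. The difference was -1.64 ± 0.62 (SE, n = 2 per group), a 3.12-fold lower level, with a 95% interval of -3.11 to -0.16. Even so Mpo remained among the brighter probe sets of every array, at the percentiles 98.0 and 96.2 in wild type and 95.1 and 91.3 in the knockout. Its RNA was therefore measured in the sorted cells of both genotypes. Fcnb, the lectin, read 9.23 and 7.55 in wild type and 8.09 and 5.93 in the knockout. Knockout replicate 1 lay 0.54 above wild type replicate 2, and the difference of -1.38 ± 0.82 (SE, n = 2 per group) had a 95% interval of -3.33 to 0.58. Cebpe, the transcription factor, read 7.82 and 6.88 in wild type and 6.63 and 6.18 in the knockout. It had the smallest difference of the 7, at -0.94 ± 0.45 (SE, n = 2 per group) with a 95% interval of -2.01 to 0.12, and its arrays did not overlap.

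**Figure D2:**
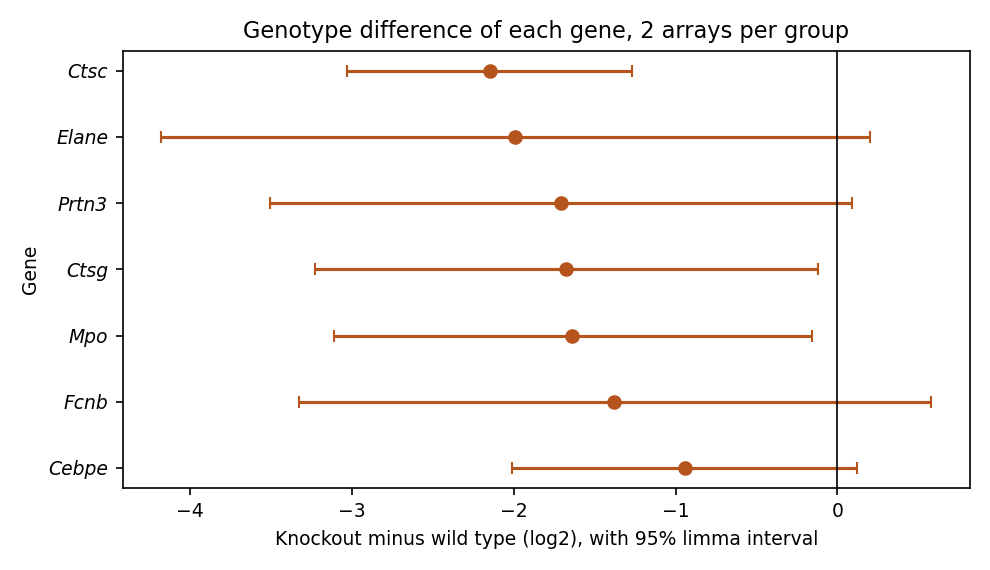
Difference between the genotypes for each gene (x axis, knockout minus wild type on the log2 scale; points are the fitted differences and bars the 95% limma intervals, 2 arrays per group). All points lie below 0; the intervals of Ctsc, Ctsg and Mpo end below 0, and Ctsc has the narrowest, from -3.03 to -1.27.

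The arrays stood in a shared order for most of these genes. Wild type replicate 1 was the highest of the 4 arrays for 6 of the 7, all but Ctsc, against 21.7% of all probe sets, and knockout replicate 2 was the lowest for 5 of the 7, against 27.5%. The mean of the 7 genes was 9.51 and 8.09 on wild type replicates 1 and 2 and 7.67 and 6.65 on knockout replicates 1 and 2. The step between the wild type arrays was larger than that between wild type replicate 2 and knockout replicate 1. After repeated quantile normalisation, which gives the arrays a common distribution, wild type replicate 2 stood above knockout replicate 1 for Elane (8.34 and 8.30) and Prtn3 (8.29 and 8.05) as well. Thus 6 of 7 did not overlap, while Fcnb still did, with 7.57 and 7.85. Before that step 9.42% of all probe sets were lower without overlap, and the share after it is not given.

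The erythroblast genes were set beside this order. The mean of the 11 erythroblast genes was 9.91 and 11.03 on wild type replicates 1 and 2, and 10.38 and 10.86 on knockout replicates 1 and 2. It was thus lowest on the array where the granule genes were highest, while on the other 3 arrays it did not follow them. The 3 genes of lowest p, Alas2 (0.55), Epb42 (0.50) and Epor (-0.23), overlapped between the genotypes, as did all 11. That count of 0 lower without overlap, against 9.42% of all probe sets, became 8 of 11 when wild type replicate 1 was left out. With 1 array fewer such a count, here and below, can only stay or rise. The share of all probe sets with an array left out is not given, so these rises are no result about a list. The median went from 0.13 to -0.41 without wild type replicate 1, and to -0.10 without knockout replicate 2. The part of this in the granule gene values was not tested.

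Genes were then ranked by how near their pattern was to that of Ctsc. By the root mean square distance of the 4 array values, each less its own mean, the 5 nearest genes outside the 7 were Ms4a1 (0.131), which encodes the B cell protein CD20, Lypla2 (0.167), an acyl protein thioesterase, Chil3 (0.214), which encodes the lectin Ym1 of myeloid cells, the small nucleolar RNA gene Snord53 (0.216) and Rgs18 (0.242), a regulator of G protein signalling in blood cells. Ms4a1, for one, read 6.44 and 6.70 in wild type and 4.34 and 4.80 in the knockout. Nearest to the mean of the 7 were Snord42b (0.079), Stap1 (0.122), Tnfaip8 (0.142), the neutrophil chemokine receptor gene Cxcr2 (0.149) and the basophil protease gene Prss34 (0.157). Cxcr2 read 9.71 and 8.02 in wild type and 7.73 and 6.44 in the knockout, with the arrays in the order seen for Mpo. Of the 7, Ctsc and Elane were the least alike, at a distance of 1.264. With 4 arrays these distances are a description.

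Other genes listed with the primary granule, not all of them granule products, were also mostly lower, less evenly. Of 13 listed genes 11 were measured, and 10 of them had lower means in the knockout, with a median difference of -0.97. Without overlap 5 were lower (9.42% of all probe sets were) and 1 was higher (15.6% of all were). Limma's adjusted test passed 0, and 4 had an unadjusted p under 0.05 (1.73% of all did, in the lower direction). Ms4a3, a membrane protein of granulocyte and monocyte progenitors, had the largest difference of the list. It read 9.06 and 7.37 in wild type and 6.32 and 5.41 in the knockout, a difference of -2.35 ± 0.63 (SE, n = 2 per group). Cd63, a tetraspanin of the granule membrane, differed by -1.69 and the lysozyme gene Lyz2 by -0.97. Serglycin (Srgn), the proteoglycan on which granule proteases are packed, differed by -0.18, and Bpi, an antibacterial protein, was dim on all arrays, at 3.55 to 3.94. Prss57, which encodes neutrophil serine protease 4, differed by -0.85 with overlapping arrays. The count of 10 lower genes became 6 without knockout replicate 2, the 5 without overlap became 8 when wild type replicate 2 was dropped and 9 without knockout replicate 1, and the median became -0.44 when wild type replicate 1 was left out and -0.52 when knockout replicate 2 was.

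Genes that act on cathepsin C or restrain the granule proteases had lower means in 7 of 7 cases, with a median of -0.89. Of these, 5 did not overlap, against 9.42% of all probe sets. The 7 lower genes became 6 when any 1 array was left out, and the 5 became 4 with centring and with repeated quantile normalisation. Limma's adjusted test passed 0, and 2 had an unadjusted p under 0.05 (1.73% of all did, in the lower direction). Cst7, which encodes cystatin F, an inhibitor of cathepsin C, read 8.68 and 6.10 in wild type and 5.46 and 5.70 in the knockout. Wild type replicate 1 stood far above the other arrays, and the difference was -1.81 ± 0.79 (SE, n = 2 per group). Serpinb1a, an inhibitor of elastase, proteinase 3 and cathepsin G that is also counted in the list before, differed by -1.10. Cst3, the cystatin C gene, differed by -1.33. Slpi, a secreted inhibitor of elastase and cathepsin G, differed by -0.89. Ctsl and Ctss, proteases that can process procathepsin C, differed by -0.25 and -0.63, and are counted again among the cathepsins below.

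The other cathepsins were less uniform. Of 12 other cathepsin genes 7 were lower and 5 higher, with a median of -0.12. Without overlap 3 were lower and 1 was higher, against 9.42% and 15.6% of all probe sets. Limma's adjusted test passed 0, and 1 (Ctso) had an unadjusted p under 0.05 (1.73% of all did, in the lower direction). Ctso differed by -1.13 and Ctsw, a cathepsin of cytotoxic lymphocytes, by -0.60. The bright lysosomal genes Ctsb and Ctsd differed by 0.04 and 0.19, and Ctse, an aspartic protease also made by red cells, read between 11.91 and 12.23 on all 4 arrays. The count of 3 became 5, 6 and 7 without wild type replicate 1, wild type replicate 2 and knockout replicate 1, and without the last the median was -0.48. Repeated quantile normalisation turned the median to 0.03. The difference between Ctsc and its family was not tested.

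Serine proteases of lymphocytes and mast cells were mostly dim. Of 10 genes for granzymes, chymases and tryptases, 7 were below the array median on all 4 arrays, and the median difference was 0.18. The largest difference was that of Mcpt8, a basophil protease, which read 8.62 and 7.91 in wild type and 5.52 and 6.53 in the knockout, a difference of -2.24 ± 0.48 (SE, n = 2 per group). Gzma differed by -0.77 and Tpsab1 by 0.34. The count of lower genes was 3 of 10, with 2 not overlapping, an order that 9.42% of all probe sets had. These counts were 8 and 7 of 10 without knockout replicate 2, where the median was -0.27. That array's lower quartile over all probe sets was 4.70, against 4.33 to 4.40 on the others.

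Position along the chromosome was then examined, for a set of neighbours picked after their values had been seen: the 6 nearest measured protein-coding genes on each side, in the order of the reference GRCm38.p6. Around Elane and Prtn3, the 11 other genes differed by -0.85 (Prss57) to 0.36 (Wdr18). Of the 11, 2 were lower and 1 was higher without overlap, against 9.42% and 15.6% of all probe sets. Around Mpo the 12 neighbours differed by -0.47 to 0.53, and 0 of them were lower and 2 higher (Tex14 and Mks1) without overlap. They include 2 related peroxidase genes, Lpo (0.18) of mucosal secretions and Epx (-0.47) of eosinophils, whose arrays overlapped. The other ficolin gene measured, Fcna, differed by -0.06 with overlapping arrays. Ctsg lies in a cluster of granzyme and mast cell protease genes, where the gene measured next to it is Mcpt8. The other 11 neighbours of Ctsg differed by -0.61 (Sdr39u1) to 0.32 (Gzme), 1 lower and 2 higher without overlap, and the proteases among them were below the array medians. Ctsg and Mcpt8 thus had the largest differences of that cluster. On the deposited values Ctsg read the same on both knockout arrays while Mcpt8 was lower on knockout replicate 1. After repeated quantile normalisation Ctsg was lower on that array too, with 6.78 on knockout replicate 1 and 7.38 on knockout replicate 2.

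**Figure D3:**
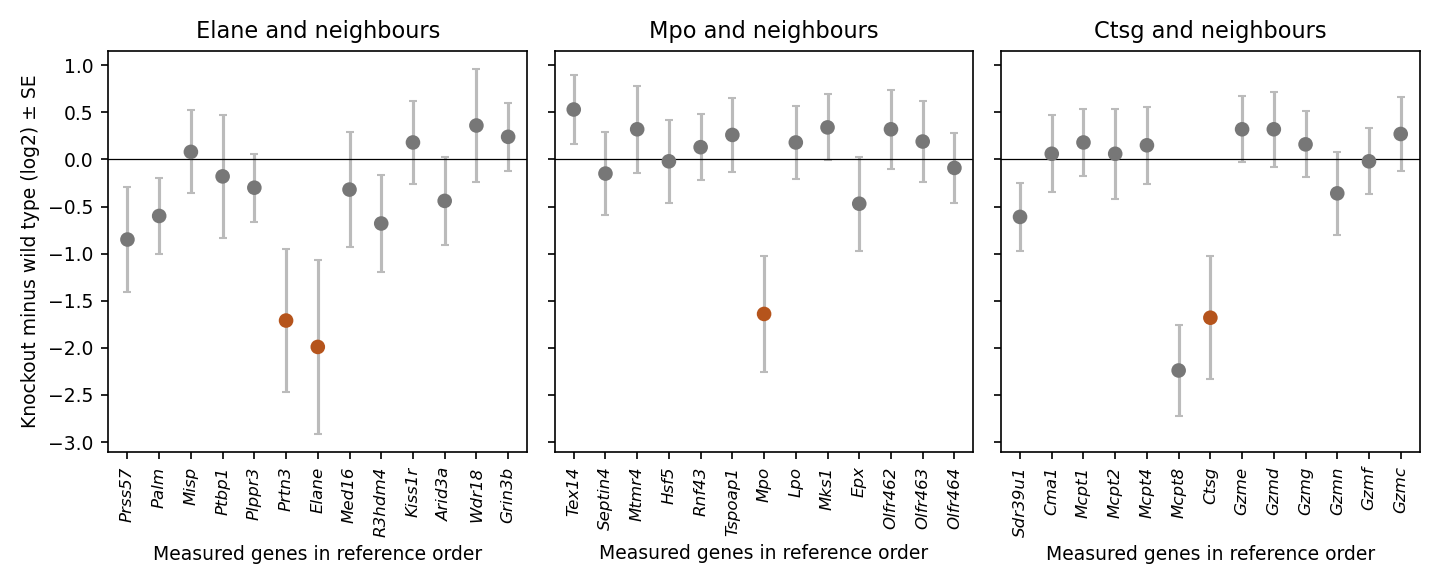
Difference between the genotypes (y axis, knockout minus wild type on the log2 scale ± limma SE, 2 arrays per group) of Elane with Prtn3, Mpo and Ctsg, in orange, and of the nearest measured protein-coding genes, in grey, in reference order (x axis, not to scale). Prtn3, Elane, Mpo and Ctsg lie between -1.99 and -1.64, and of their neighbours Mcpt8 lies at -2.24 and the others between -0.85 and 0.53.

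Regulators of granulocyte development other than Cebpe had lower means in 12 of 15 cases, with a median of -0.57. Of the 15, 8 were lower without overlap, against 9.42% of all probe sets. Some of the 8 were near ties, with gaps between the groups of 0.00 for Myb, 0.02 for Cebpd and 0.08 for Cebpa. With Cebpe counted, 9 of 16 were lower without overlap, which became 7 with centring and 6 with repeated quantile normalisation. Limma's adjusted test passed 0, and 1 (Spi1) had an unadjusted p under 0.05 (1.73% of all did, in the lower direction). Spi1, which encodes PU.1, read 9.51 and 8.31 in wild type and 7.93 and 6.05 in the knockout. Both knockout arrays were lower, and the difference was -1.92 ± 0.70 (SE, n = 2 per group). Cebpd differed by -0.88 and Cebpa, the factor that starts granulocyte commitment, by -0.71, while Gfi1, a repressor needed for neutrophil development, differed by -0.03 and Cebpb by 0.18. The progenitor factor gene Myb differed by -0.80, and Csf3r, the receptor for granulocyte colony-stimulating factor, by -0.68.

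Genes of the later granules and of mature neutrophils mark the next steps of the same lineage. Of 18 listed genes 16 were measured, and 16 of 16 were lower without overlap, against 9.42% of all probe sets. Their median difference was -1.23. Their mean level was 10.82 and 10.31 on wild type replicates 1 and 2, and 9.54 and 9.03 on knockout replicates 1 and 2. Limma's adjusted test passed 0, and 12 had an unadjusted p under 0.05 (1.73% of all did, in the lower direction). Chil3 (-1.96), lactoferrin (Ltf, -1.35) and Itgb2l (-1.25) had the lowest p. Leaving out an array cannot lower this count, so its staying at 16 of 16 is no check of it. Of the 7 primary granule genes, 4 were lower without overlap on all arrays. The wild type arrays differed by a median of 0.46 for the later genes (replicate 1 minus replicate 2) and by 1.68 for the 7. The difference between these groups was not tested.

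Markers of other cells were examined in the same way, and among these lists B cell markers had the most members lower without overlap. Over all probe sets 9.42% were lower and 15.6% higher without overlap. An unadjusted limma p under 0.05 in the lower direction was had by 1.73% of all. The mean of the 12 measured B cell markers was 6.58 and 7.09 in wild type and 5.70 and 5.81 in the knockout, and 9 of them were lower without overlap, Ms4a1 (-2.00), Vpreb1 (-2.90) and Igll1 (-1.40) with the lowest p. The mean of the 12 markers of basophils, mast cells and eosinophils was 6.46 and 6.07 against 5.39 and 5.61, with 4 lower without overlap, among them Alox5 (-1.58). That count was 5 to 8 with 1 array left out, and the median of -0.64 was then -0.87 to -0.23. For the 14 measured monocyte and macrophage markers it was 6.59 and 7.07 against 5.83 and 6.76, so that knockout replicate 2 lay above wild type replicate 1, with 3 lower without overlap. Adgre1 (-1.12), Cd68 (-1.02) and Csf1r (-0.65) had the lowest p. The 3 became 10 when wild type replicate 1 was left out, 9 when knockout replicate 2 was and 5 for either other array, and the median of -0.62 became -0.19 when wild type replicate 2 was dropped and 0.01 without knockout replicate 1. For T and NK cells it was 5.29 and 5.55 against 4.86 and 5.23, with 2 of 10 lower without overlap (Nkg7 -1.63 and Cd3g -0.92), 1 higher (Cd8a 0.30), Il7r (-0.55) overlapping and 5 of 10 below the array median on all arrays. The 2 became 5 without wild type replicate 1, 3 when wild type replicate 2 was dropped and 6 without knockout replicate 2. Megakaryocyte and platelet markers had means of 5.53 and 6.26 against 5.74 and 6.55, with 1 of 7 higher (Itgb3 0.45) and 1 lower (Gp9 -0.62) without overlap and Pf4 at 1.14. Their median of 0.20 turned to -0.10 without wild type replicate 1 and to -0.06 without knockout replicate 2. None of the genes in these lists passed limma's adjusted test; at an unadjusted p under 0.05 it gave 6 B cell, 3 basophil, 2 macrophage, 2 T and NK and 0 megakaryocyte genes. The part of these cells in the values of Ctsc, which several of them are known to express, was not tested.

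**Figure D4:**
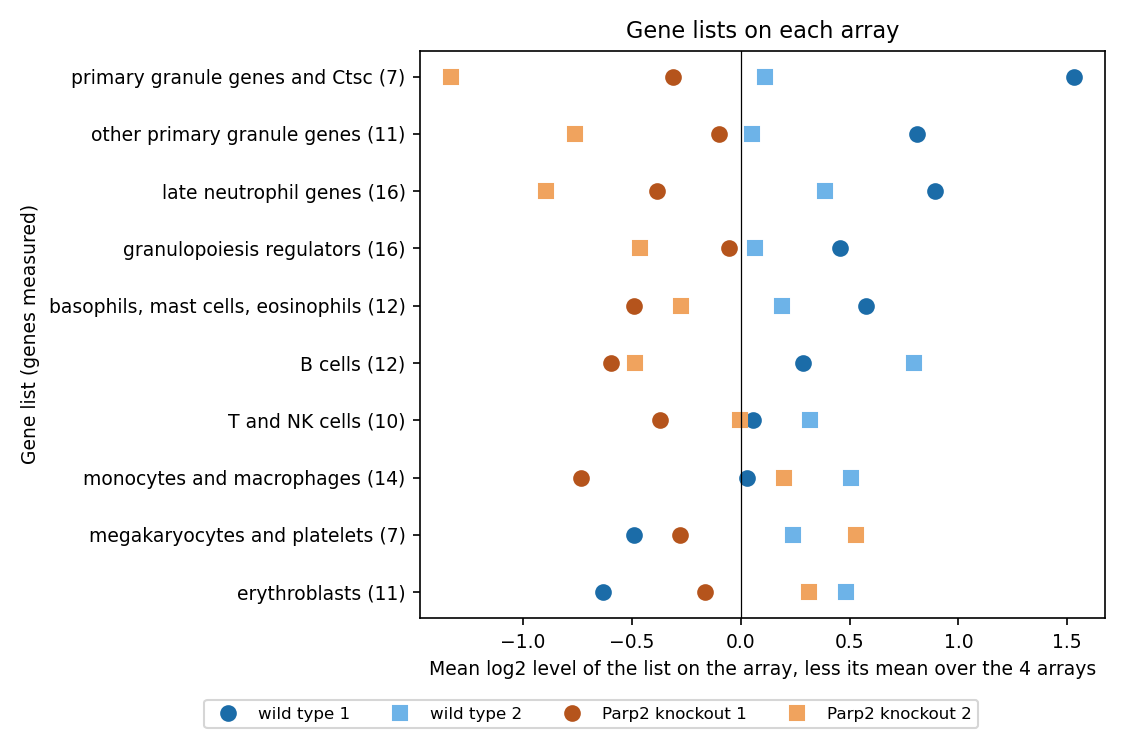
Mean log2 level of each gene list on each array, less the list's mean over the 4 arrays (x axis), with the number of genes measured beside each name (y axis; circles replicate 1, squares replicate 2, blue wild type, orange Parp2 knockout). The primary granule genes spread the most, from a mean of 9.51 on wild type replicate 1 to 6.65 on knockout replicate 2, and the erythroblast genes are lowest, at 9.91, on wild type replicate 1.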

How the data were processed

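The deposited table holds 35511 probe sets on 4 arrays as log2 values. RMA, limma and R 3.0.2 are named, per the submitters' processing notes, with no role or order; RMA is known to compress large differences. Per the labels' protocols, 100 ng of total RNA was labelled per sample. Platform annotation named 23410 probe sets, 1621 of them with several genes; the highest mean over the 4 arrays chose a gene's probe set, and each of the 7 genes had only 1.

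The genotypes were set against each other in limma 3.58.1 under R 4.3.3 (lmFit, eBayes, Benjamini-Hochberg adjustment over all annotated probe sets), checked on simulated arrays. The fit had 2 residual and 4.77 prior degrees of freedom. An exact permutation test of 2 against 2 cannot give a two-sided p below 0.333. Separate animals are not stated, and p-values cover only the spread among these 4 samples, possibly technical. Wild type titles open with 1 and 2, knockout titles with 3 and 4; any run order these mark and the genotype cannot be told apart.

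The members, and the 13 lists around them, were chosen with earlier results of these data known. Genes named are the 7, Parp2, per list the 3 of lowest p and those its description needs, and the 5 nearest in pattern to Ctsc and to the mean of the 7. The alternatives were the replicate block, leaving out each array, centring, quantile normalisation once more, leaving out dim probe sets, other moderation, array weights, all rows, other thresholds and the mean over probe sets. Precision is limited by the number of arrays.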

Additional observations from a re-analysis of the deposited data

How the results depend on the processing

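All 7 genes kept lower means in the knockout under each of the 12 alternatives that refit or recompute them. Only leaving out an array, centring and repeated quantile normalisation altered the differences. The other alternatives returned the main differences unchanged, so they are no check of direction. The count of probe sets past limma's test (0) was 274 with the replicate number of the titles as a replicate block, 8 with trended and robust moderation, 486 at an unadjusted p of 0.05 with at least 1.5-fold change, and 0 to 62 with 1 array left out. When any 1 array was dropped, the median difference of the 7 (-1.68) lay between -2.38 and -0.68. The count of the 7 that were lower without overlap (4) was then 4 to 7, and it could not fall. With the replicate block, 5 of the 7 passed (adjusted p of 6.99e-05 for Ctsc, 0.00035 for Elane, 0.00459 for Prtn3, 0.00563 for Ctsg and 0.00822 for Mpo), and Fcnb (0.0562) and Cebpe (0.50) did not. All 7 were lower in both same-numbered comparisons, as were 21.2% of all probe sets. The block fit has 1 residual degree of freedom and gave all probe sets the same SE, 0.41. Its p-values thus rank the sizes of the differences and take in no gene's own spread. No label says what the numbers mark. Over probe sets, replicate 2 less replicate 1 correlated at 0.468 between the genotypes. Over all alternatives the differences ran from -3.24 to -0.74 for Elane, -2.74 to -0.68 for Prtn3, -2.69 to -0.66 for Ctsg, -2.38 to -0.90 for Mpo, -2.45 to -0.30 for Fcnb and -1.41 to -0.48 for Cebpe. Each gene has 1 probe set, so averaging probe sets altered none of the 7.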
